A study of Mus musculus with 17 samples.

Results

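Expression of 10 genes of the WNT pathway was followed in stellate cells of the mouse pancreas, a resident stromal cell type that can turn into activated fibroblasts. The genes were 5 ligands (Wnt2, Wnt4, Wnt5a, Wnt9a and Wnt11), 4 secreted antagonists (Dkk2, Dkk3, Sfrp1 and Sfrp2) and the target gene Axin2, and they were found by gene symbol among the 35896 gene IDs of the count files. All 10 were present and all 10 passed the filter on low counts, which kept 13923 genes. The set was chosen from these same libraries because Dkk2 and Wnt9a differed strongly between media, so the media differences of Dkk2 and Wnt9a are described without a test. The other 8 genes were tested in a model fitted to all 13923 genes.

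RNA was sequenced from 17 libraries of 2 stellate cell lines, PSC4 and PSC5, both wild type and of strain C57BL/6J. All cultures were embedded in Matrigel (a basement membrane extract) and received their medium for 4 days. The 5 control libraries came from control medium (PSC4 replicates 1, 2 and 3 at passages 23, 24 and 25, PSC5 replicates 1 and 2 at passages 27 and 28). The 4 TGF-beta libraries received TGF-beta at 20 ng/mL (PSC4 replicates 2 and 3, PSC5 replicates 1 and 2). The 4 libraries called CM received medium conditioned by pancreatic tumour organoids, and 4 more received such medium with 300 nM of neratinib, which inhibits receptor kinases of the ERBB family. In both conditioned medium groups the libraries were PSC4 replicates 1 and 2 and PSC5 replicates 1 and 2, and the labels give replicate 1 the medium code T8 and replicate 2 the code T6 without saying what the codes stand for. The series' design text calls the control cells quiescent and the TGF-beta cells myCAFs. No group with neratinib but without conditioned medium was analysed here.

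WNT proteins are secreted lipid-modified ligands that bind Frizzled receptors together with LRP5 or LRP6, which keeps beta-catenin from being destroyed and lets it switch on target genes with the TCF and LEF factors. Other WNT proteins, among them WNT5A and WNT11, mostly act through receptors such as ROR2 without beta-catenin. DKK proteins block the pathway at LRP5 and LRP6, and SFRP proteins bind WNT ligands outside the cell. In the pancreas, stellate cells and fibroblasts are a source of WNT ligands and of their antagonists.

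The promoters of 4 genes are shown because their levels followed different orders across the media: Dkk2 was highest in control medium, Wnt9a and Wnt11 were highest with TGF-beta, and Axin2 is the standard readout of beta-catenin signalling. Each line gives the 250 bases before the RefSeq transcription start (build GRCm38.p6, plus strand, 5′ to 3′), and capitals mark matches on either strand to CTTTGNT, the core of the TCF and LEF site, or to CAGAC, the SMAD box of TGF-beta signalling.
Dkk2: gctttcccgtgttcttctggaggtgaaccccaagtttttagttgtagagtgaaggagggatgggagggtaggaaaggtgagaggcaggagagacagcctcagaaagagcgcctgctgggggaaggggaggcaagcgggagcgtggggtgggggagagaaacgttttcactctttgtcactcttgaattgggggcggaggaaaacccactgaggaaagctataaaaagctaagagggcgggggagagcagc
Wnt9a: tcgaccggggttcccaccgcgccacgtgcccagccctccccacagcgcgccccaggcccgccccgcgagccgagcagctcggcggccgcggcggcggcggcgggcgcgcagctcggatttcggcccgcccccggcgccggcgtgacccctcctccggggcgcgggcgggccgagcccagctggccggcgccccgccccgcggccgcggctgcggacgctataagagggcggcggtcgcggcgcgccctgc
Wnt11: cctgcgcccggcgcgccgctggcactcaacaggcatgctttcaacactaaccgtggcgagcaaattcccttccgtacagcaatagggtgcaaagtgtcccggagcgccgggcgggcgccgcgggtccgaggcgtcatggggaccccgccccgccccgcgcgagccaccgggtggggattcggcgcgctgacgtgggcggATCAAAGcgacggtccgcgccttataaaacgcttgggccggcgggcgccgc
Axin2: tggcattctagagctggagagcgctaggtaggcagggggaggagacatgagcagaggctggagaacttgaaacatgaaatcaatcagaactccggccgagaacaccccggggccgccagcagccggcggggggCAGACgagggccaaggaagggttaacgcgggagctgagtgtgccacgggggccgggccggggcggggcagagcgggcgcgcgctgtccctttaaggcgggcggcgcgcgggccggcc
They lie at chr3:132085042-132085291 for Dkk2, chr11:59306680-59306929 for Wnt9a, chr7:98834862-98835111 for Wnt11 and chr11:108920099-108920348 for Axin2. The Wnt11 promoter held 1 match to CTTTGNT, on the minus strand 51 bases before the start. The Axin2 promoter held 1 match to CAGAC, on the plus strand 117 bases before the start, and the Dkk2 and Wnt9a promoters held neither. Over all 32851 promoters of the RefSeq table, 16% held CTTTGNT and 42.2% held CAGAC in the same 250 bases. None of the 4 windows held both, so no match overlapped another. Wnt11 has a second promoter in the table, which held 1 match to CAGAC and is not shown. A match is only a description of the sequence. The table held promoters for 7 of the 10 genes, and those of Dkk3, Sfrp1 and Wnt5a were not in it.

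Library totals ran from 22168953 to 29421447 counts, and levels are given as CPM, counts scaled to library size with TMM factors. Of the 13923 genes, 5598 were called between TGF-beta and control at an adjusted p under 0.05, 1976 between CM and control, 5998 between conditioned medium with neratinib (called neratinib from here on) and control, 2850 between neratinib and CM, and 4916 between CM and TGF-beta. With upper-quartile scaling the CM split against control went from 982 higher and 994 lower to 783 and 1307, and the neratinib split from 3085 and 2913 to 2442 and 3494. Between PSC4 and PSC5 it went from 666 higher in PSC4 and 304 lower to 534 and 387. With a replicate block, in which libraries of the same line and number are paired, 3240 genes were called between CM and control and 4563 between neratinib and CM. The stellate cell and fibroblast markers summed to between 4073 and 20440 CPM in every library. Among them Col1a1, a chain of type I collagen, was between 422 and 10480 CPM. On the same list Des was only between 0.584 and 3.71 CPM and Lum between 0.325 and 23.3 CPM. The 6 mesothelial markers summed to 4.22 to 81.5 CPM. Of these, Msln held 30.5, 3.61 and 0.951 CPM in control PSC4 replicates 1 to 3 and 22.8 and 29.5 CPM in control PSC5. Ptprc, the pan-leukocyte marker, was at most 0.0430 CPM, and Adgre1, the macrophage marker, was at 0 in all 17 libraries.

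The 3 libraries labelled PSC4 replicate 1 stood apart from the other PSC4 libraries. In control medium this library differed from PSC4 replicates 2 and 3 by a root mean square of 0.67 and 0.72 log2 units over the tested genes, and from the PSC5 replicates by 0.41 and 0.39. The CM library of PSC4 replicate 1 was likewise nearer to both PSC5 libraries (0.45 and 0.52) than to PSC4 replicate 2 (0.72). The neratinib library of PSC4 replicate 1 was far from all 3 others of its group (0.78 to 0.96), with the lowest Col1a1 of all 17 libraries (422 CPM) and the highest Cd68, a macrophage and lysosome gene (12.3 CPM against 1.37 to 2.54 CPM elsewhere). The 8 leukocyte markers summed to 13.5 CPM in that library and to 2.11 to 3.67 CPM in the other 16; their part in the results was not tested. The label was kept, and each call of a named gene that changes when these 3 libraries are left out is given both ways.

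In control medium the antagonists had the higher mean levels per length. Expressed as CPM per kb of exon, Sfrp2 had the highest mean (77.6), followed by Sfrp1 (26.5), Dkk3 (20.7) and Dkk2 (10.3). The ligand Wnt5a followed at 6.10, then Wnt4 at 3.02 and Axin2 at 1.13, and Wnt9a (0.520), Wnt11 (0.299) and Wnt2 (0.181) were the lowest. The ranges over the 5 control libraries overlapped between every gene and its neighbour in this order. Control PSC4 replicates 2 and 3 held the most of all 4 antagonists, and the order of the means does not hold in every library. The lowest control value of Dkk2 (4.75) was below the lowest of Wnt5a (5.87).

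Wnt9a, a ligand known from joint formation (ENSMUSG00000000126, GRCm38 chr11:59306928-59333552), was high only in the TGF-beta group among the 4 media. With TGF-beta it stood at 6.31 and 7.26 CPM in PSC4 replicates 2 and 3 and at 6.10 and 6.71 CPM in PSC5 replicates 1 and 2. The control libraries held 1.71, 1.61 and 0.810 CPM in PSC4 and 2.15 and 2.38 CPM in PSC5, so the groups did not overlap. The CM libraries held 1.05 and 1.20 CPM in PSC4 and 0.841 and 1.58 CPM in PSC5. The neratinib libraries held 1.96 and 1.91 CPM in PSC4 and 1.30 and 1.92 CPM in PSC5, within the range of the control libraries. The fitted difference from control was 1.93 ± 0.26 (log2, SE) with TGF-beta, a 3.81-fold rise, -0.57 ± 0.27 in CM and 0.04 ± 0.26 with neratinib. These differences chose the gene and carry no test. Wnt9a rests on few reads, between 22 and 201 counts a library.

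Wnt11, a ligand of the beta-catenin independent branch (ENSMUSG00000015957, chr7:98835112-98855195), rose with TGF-beta and fell in both conditioned media. It stood at 6.42 and 6.32 CPM in PSC4 and 7.09 and 12.4 CPM in PSC5 with TGF-beta, against 1.55, 0.858 and 1.13 CPM in control PSC4 and 1.72 and 0.922 CPM in control PSC5. The CM libraries held 0.374 and 0.423 CPM in PSC4 and 0.344 and 0.302 CPM in PSC5, and the neratinib libraries 0.0851, 0.195, 0.216 and 0.183 CPM in the same order. The 4 groups therefore did not overlap with one another, with TGF-beta highest, then control, then CM, then neratinib. Against control, edgeR gave a log2 difference of 2.66 ± 0.26 with TGF-beta (adjusted p = 2.62e-06), -1.78 ± 0.29 in CM (adjusted p = 0.00168) and -2.86 ± 0.33 with neratinib (adjusted p = 2.3e-05). The CM to TGF-beta difference was -4.43 ± 0.32 (adjusted p = 1.29e-07). Against CM, neratinib gave -1.08 ± 0.37 with an adjusted p of 0.0496, which became 0.0731 with the replicate block, 0.0969 with DESeq2 and 0.217 without the 3 PSC4 replicate 1 libraries. That call was also lost without any 1 of the 8 libraries (adjusted p 0.0517 to 0.144), and it rests on 2 to 12 counts a library. The gene Gm8398 overlaps Wnt11 on the other strand, and whether reads were counted by strand is not given in the sources used here.

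**Figure D1:**
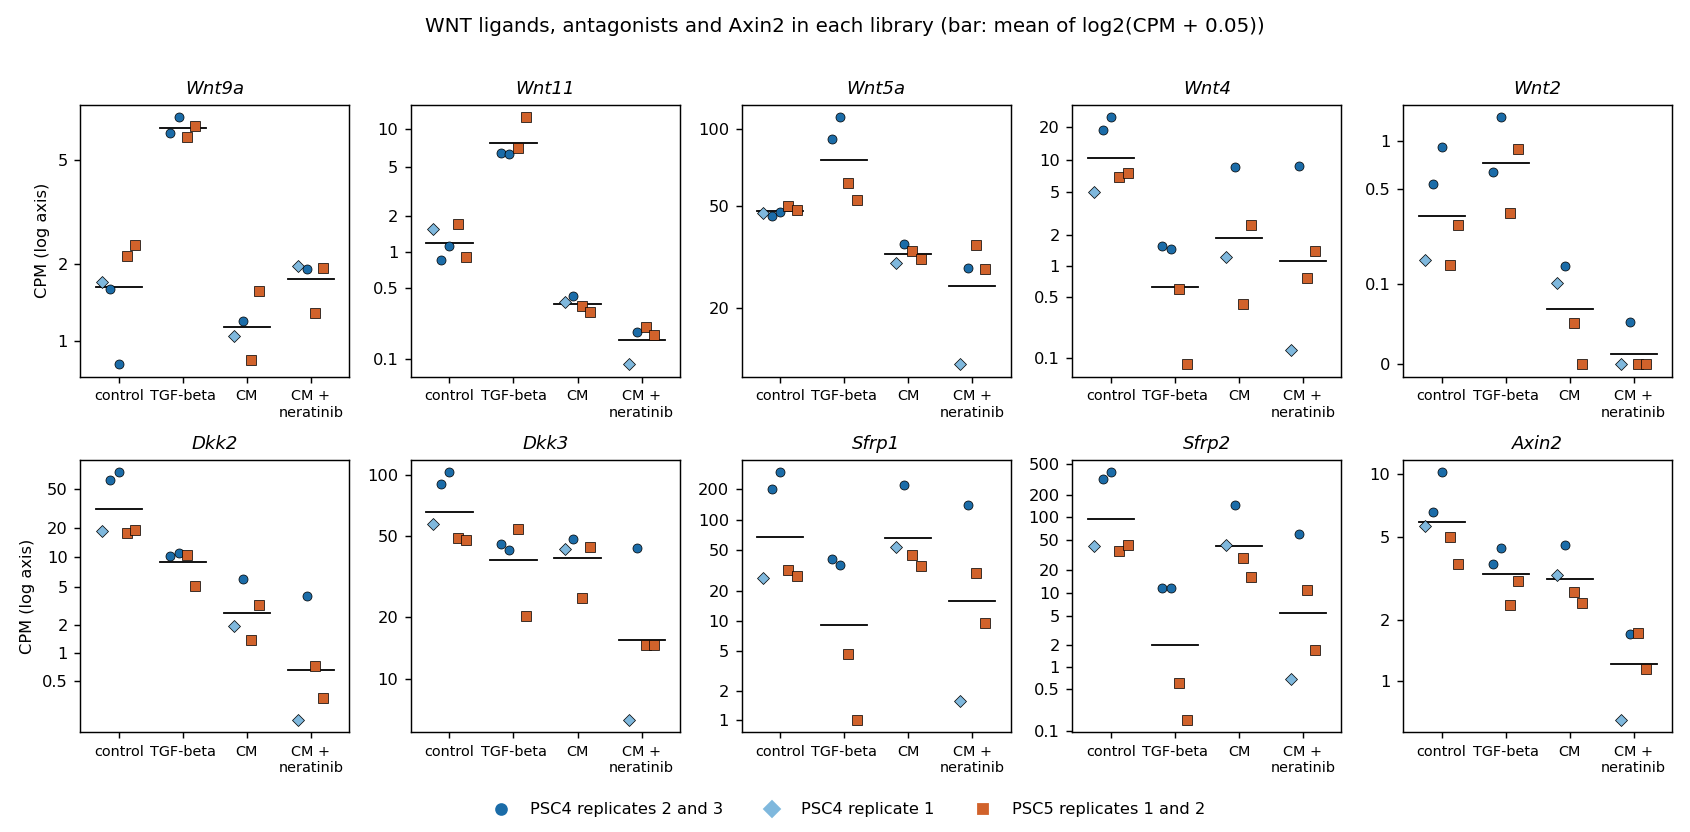
CPM on a log axis in each of the 17 libraries for the 10 genes, by medium, with marker shape and colour for the cell line and for PSC4 replicate 1 and a bar at the group mean of log2(CPM + 0.05). Wnt9a is between 6.10 and 7.26 CPM in the 4 TGF-beta libraries and at most 2.38 CPM elsewhere, Dkk2 is below every control library in all other media, and Sfrp1, Sfrp2 and Wnt4 spread widely within each medium.

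Wnt5a, the main ligand of the ROR2 branch (ENSMUSG00000021994, chr14:28504750-28527448), was the most evenly expressed ligand in control medium, at 47.1, 45.9 and 47.2 CPM in PSC4 and 50.3 and 48.2 CPM in PSC5. With TGF-beta it stood at 91.7 and 111 CPM in PSC4 and 61.7 and 53.1 CPM in PSC5, all above the control libraries. It rose by 0.73 ± 0.24 on the log2 scale (edgeR adjusted p = 0.0256). Without control PSC4 replicate 2 or either PSC4 library with TGF-beta the adjusted p lay between 0.0524 and 0.12. The CM libraries held 30.1 and 35.5 CPM in PSC4 and 33.4 and 31.1 CPM in PSC5, below every control library, at -0.55 ± 0.25 and an adjusted p of 0.157. That same difference had an adjusted p of 0.000983 when only the control and CM libraries were fitted. With neratinib the values were 12.04 CPM in PSC4 replicate 1, 28.8 in PSC4 replicate 2, and 35.4 and 28.4 in PSC5. Wnt5a fell by 0.86 ± 0.25 against control (adjusted p = 0.0134), and the difference between neratinib and CM was -0.31 ± 0.26 (adjusted p = 0.434). The CM to TGF-beta difference was -1.28 ± 0.26 (adjusted p = 0.0015).

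Wnt4, a ligand of epithelial and stromal development (ENSMUSG00000036856, chr4:137277489-137299726), fell with TGF-beta. The control libraries held 5.01, 18.8 and 24.9 CPM in PSC4 replicates 1 to 3 and 7.002 and 7.55 CPM in PSC5. With TGF-beta the values were 1.58 and 1.48 CPM in PSC4 and 0.602 and 0.0813 CPM in PSC5, all below every control library. Wnt4 fell by 3.80 ± 0.92 on the log2 scale (edgeR adjusted p = 0.0043). The CM libraries held 1.22 and 8.54 CPM in PSC4 and 0.421 and 2.48 CPM in PSC5, and the neratinib libraries ranged from 0.128 to 8.71 CPM. In both media PSC4 replicate 2 was the highest and overlapped the control libraries. The CM difference of -1.99 ± 0.82 had an adjusted p of 0.12, and 0.0146 with the replicate block or 0.0175 without the 3 PSC4 replicate 1 libraries. The neratinib difference of -2.23 ± 0.83 passed (adjusted p = 0.0415). Without any 1 of 7 of the 9 libraries it did not (0.0631 to 0.0875), the exceptions being control PSC4 replicate 1 and neratinib PSC4 replicate 2, nor with only the compared groups (0.0738). The CM to TGF-beta difference was 1.81 ± 0.92 (adjusted p = 0.141, 0.0132 with the replicate block and 0.00418 without the 3 PSC4 replicate 1 libraries).

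Wnt2, a beta-catenin activating ligand known from fibroblasts (ENSMUSG00000010797, chr6:17988940-18030585), was scarce in every medium. The control libraries held 0.159, 0.536 and 0.916 CPM in PSC4 and 0.144 and 0.284 CPM in PSC5, which is 4 to 26 counts, and the TGF-beta libraries held 0.638 and 1.41 CPM in PSC4 and 0.344 and 0.895 CPM in PSC5. CM libraries held 0.102 and 0.141 CPM in PSC4 and 0.0382 CPM and 0 in PSC5, all below the control libraries. With neratinib 3 of 4 libraries had no count and PSC4 replicate 2 had 1 count. The TGF-beta difference was 1.20 ± 0.52 (edgeR adjusted p = 0.0795, and 0.0403 without control PSC4 replicate 3). Wnt2 fell in CM by 2.41 ± 0.66 (adjusted p = 0.0267). Without any 1 of the 4 CM libraries, control PSC4 replicate 3 or control PSC5 replicate 2 the adjusted p was 0.0512 to 0.0738. Against the floor of 3 counts a library, Wnt2 was at least 3.19-fold lower with neratinib than in control medium (adjusted p = 0.00108). The CM to TGF-beta difference was -3.61 ± 0.67 (adjusted p = 0.000707).

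Dkk2, an antagonist at LRP5 and LRP6 (ENSMUSG00000028031, chr3:132085292-132180304), was lower than in control medium in every treated library. The control libraries held 18.6, 61.9 and 73.8 CPM in PSC4 replicates 1 to 3 and 17.6 and 19.2 CPM in PSC5. With TGF-beta they held 10.3 and 11.1 CPM in PSC4 and 10.6 and 5.12 CPM in PSC5. In CM the values were 1.94 and 6.03 CPM in PSC4 and 1.38 and 3.19 CPM in PSC5. With neratinib they were 0.170 and 4.01 CPM in PSC4 and 0.735 and 0.321 CPM in PSC5, where the lowest library held 4 counts. The fitted differences from control were -1.77 ± 0.58 (log2, SE) with TGF-beta, -3.40 ± 0.62 in CM and -4.75 ± 0.69 with neratinib, or 3.42-fold, 10.6-fold and 27-fold lower. Without neratinib PSC4 replicate 2 the last difference was -6.17. Neratinib against CM gave -1.35 ± 0.68, and -2.71 without the same library. Within each pair of libraries of the same line and number, Dkk2 was lower with neratinib than in CM in 4 of 4 pairs, with log2 ratios of -2.97 to -0.58. These media differences chose the gene and carry no test.

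Comparisons that did not choose Dkk2 or Wnt9a were tested. Dkk2 was higher in PSC4 than in PSC5 by 1.11 ± 0.44 with an edgeR adjusted p of 0.113, by 1.44 without the 3 PSC4 replicate 1 libraries (adjusted p = 0.00193) and by 1.19 without the neratinib one of them (adjusted p = 0.0370). For Wnt9a the line difference was -0.15 ± 0.19 (adjusted p = 0.625). The share of all genes called between the lines was 6.97%, and 2 members were among them: Sfrp1 was higher in PSC4 by 2.40 ± 0.67 (adjusted p = 0.0461) and Sfrp2 by 2.64 ± 0.67 (adjusted p = 0.0361). Leaving out 1 library at a time, Sfrp1 lost the call in 14 of 17 cases (adjusted p 0.0541 to 0.133) and kept it only without 1 of the 3 PSC4 replicate 1 libraries. Sfrp2 lost it in 12 of 17 (0.0614 to 0.104), keeping it without any 1 of those 3 libraries, CM PSC5 replicate 1 or neratinib PSC5 replicate 1. Without the 3 PSC4 replicate 1 libraries, Dkk3 (0.80, adjusted p = 0.0138), Wnt2 (1.36, adjusted p = 0.0264), Wnt4 (2.20, adjusted p = 0.000321) and Axin2 (0.70, adjusted p = 0.0037) were also higher in PSC4, in a fit that called 42.6% of all genes between the lines. Between the medium codes T6 and T8, edgeR called 0 genes (0%), 906 had an unadjusted p under 0.05, and DESeq2 called 33. Dkk2 differed between T6 and T8 by 1.13 ± 0.63 (adjusted p = 0.802) and Wnt9a by 0.45 ± 0.39 (adjusted p = 0.874). Code and replicate number coincide in conditioned medium, so this test takes the effect of the number from the control and TGF-beta libraries. No interaction of medium with cell line passed in edgeR for any of the 10 members in the 3 comparisons with control. The interaction test called 0 of all 13923 genes in each comparison, so this is not particular to the members. The lowest unadjusted p of a member was 0.0342, for Wnt5a with TGF-beta. The PSC4 replicate 1 libraries were kept as PSC4 in this test.

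Dkk3, a divergent member of the DKK family whose action on LRP receptors is unsettled (ENSMUSG00000030772, chr7:112116017-112159057), fell with neratinib. The control libraries held 57.9, 90.1 and 103 CPM in PSC4 and 49.2 and 47.8 CPM in PSC5, and the neratinib libraries held 6.25 and 43.8 CPM in PSC4 and 14.6 and 14.6 CPM in PSC5, all below the control libraries. Dkk3 fell by 1.75 ± 0.42 (edgeR adjusted p = 0.00398). TGF-beta libraries ranged from 20.3 to 54.1 CPM and CM libraries from 24.8 to 48.7 CPM, both overlapping control, with differences of -0.67 ± 0.40 (adjusted p = 0.204) and -0.70 ± 0.40 (adjusted p = 0.271, and 0.0458 with only the compared groups). Neratinib against CM gave -1.05 ± 0.43 (adjusted p = 0.0935), and 0.0311 with the replicate block, 0.0437 with DESeq2 and 0.0131 without neratinib PSC4 replicate 2.

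Sfrp1 and Sfrp2, which bind WNT ligands outside the cell, had the highest mean CPM per kb of the 4 antagonists in control medium and in CM, and varied widely within each medium. Sfrp2 (ENSMUSG00000027996, chr3:83766321-83774316) stood at 41.7, 322 and 392 CPM in control PSC4 replicates 1 to 3 and at 36.1 and 43.6 CPM in control PSC5. With TGF-beta it stood at 11.8 and 11.6 CPM in PSC4 and 0.602 and 0.163 CPM in PSC5, all below every control library. Sfrp2 fell by 4.86 ± 1.02 on the log2 scale, or 29-fold (edgeR adjusted p = 0.00156). CM libraries held 42.6 and 147 CPM in PSC4 and 29.4 and 16.3 CPM in PSC5, above every TGF-beta library, and the CM to TGF-beta difference was 3.77 ± 1.01 (adjusted p = 0.00918, and 0.0766 with no cell line term).

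Neratinib libraries held 0.681 and 60.1 CPM of Sfrp2 in PSC4 and 10.98 and 1.74 CPM in PSC5. Sfrp2 fell against control by 2.86 ± 0.91 (adjusted p = 0.0206, 0.0552 without neratinib PSC5 replicate 2 and 0.0671 with only the compared groups), and CM gave -1.09 ± 0.84 (adjusted p = 0.425). Neratinib against CM gave -1.77 ± 0.91 with an adjusted p of 0.183, but 0.00789 with the replicate block and 0.0323 without the 3 PSC4 replicate 1 libraries, and Sfrp2 was lower with neratinib in 4 of 4 pairs. The pair of PSC4 replicate 1 had the largest ratio of the 4, at -5.77 log2 units.

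Sfrp1 (ENSMUSG00000031548, chr8:23411502-23449632) showed the same split within control medium, at 26.9, 199.9 and 292 CPM in PSC4 replicates 1 to 3 and 32.2 and 28.1 CPM in PSC5. With TGF-beta it stood at 40.6 and 35.4 CPM in PSC4 and 4.68 and 1.02 CPM in PSC5, so that the groups overlapped, while all 4 pairs were lower with TGF-beta, with log2 ratios of -4.66 to -2.30. Sfrp1 fell by 2.58 ± 0.92 (edgeR adjusted p = 0.0365). It was not called without any 1 of 8 of the 9 libraries (adjusted p 0.0507 to 0.0922), the exception being control PSC4 replicate 1. CM libraries held 54.2 and 222 CPM in PSC4 and 44.5 and 35.1 CPM in PSC5. The difference from control was 0.05 ± 0.84 (adjusted p = 0.977), and all 4 CM libraries were above their paired control by 0.15 to 1.01 log2 units. CM libraries were higher than TGF-beta libraries by 2.63 ± 0.96 (adjusted p = 0.0452, and 0.0667 to 0.11 without any 1 of the 4 TGF-beta libraries or CM PSC4 replicate 2, CM PSC5 replicate 1 or CM PSC5 replicate 2).

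With neratinib Sfrp1 held 1.57 and 138 CPM in PSC4 and 29.6 and 9.53 CPM in PSC5. The difference from control was -0.97 ± 0.87 (adjusted p = 0.386). The difference from CM was -1.01 ± 0.90 (adjusted p = 0.459, and 0.0304 with the replicate block), with 4 of 4 pairs lower. In bulk RNA, fewer cells that express Sfrp1 or Sfrp2 and less of their RNA per cell cannot be told apart.

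**Figure D2:**
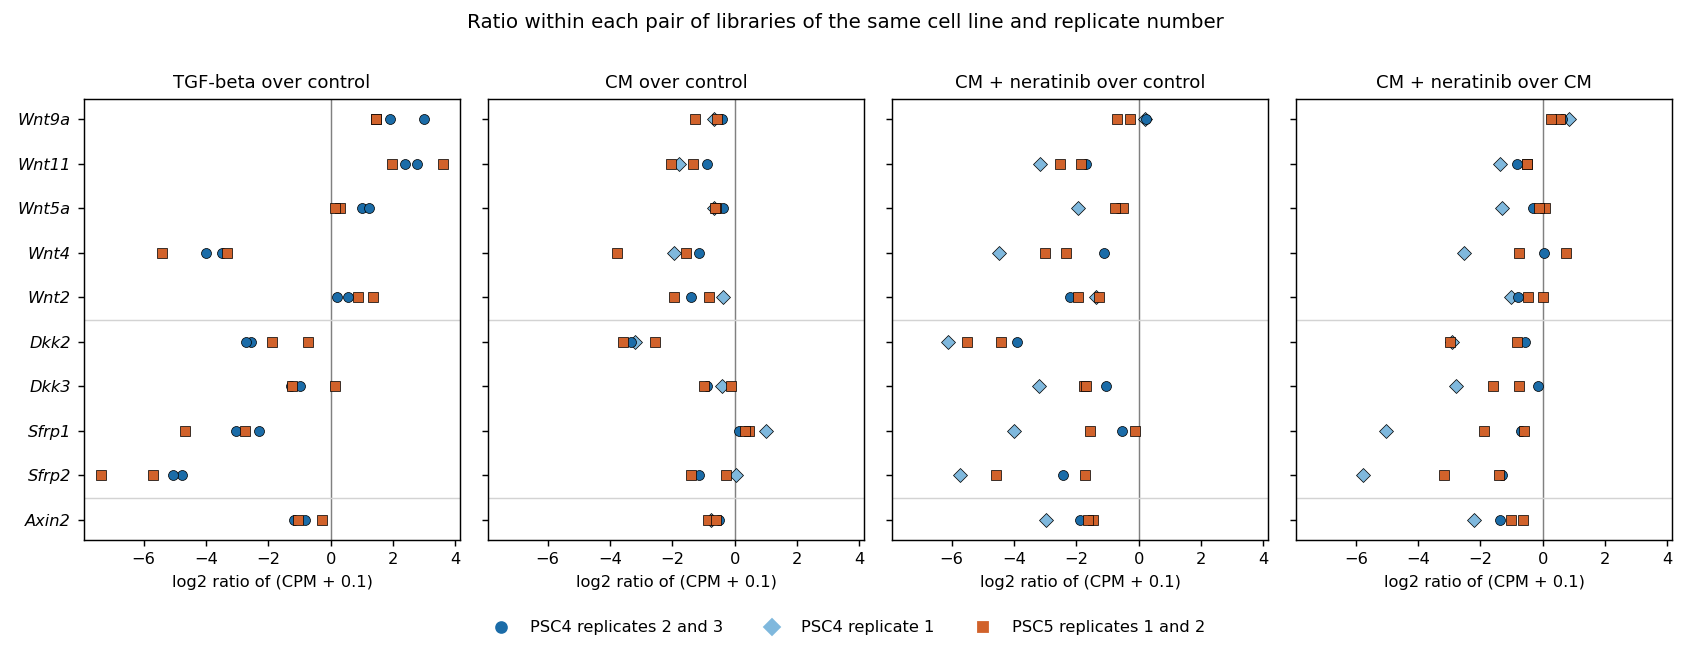
Log2 ratio of CPM + 0.1 within each pair of libraries of the same cell line and replicate number, 1 point per pair, for 4 comparisons and 10 genes (ligands, then antagonists, then Axin2). Wnt9a and Wnt11 lie to the right of 0 in all 4 TGF-beta pairs and Wnt11 to the left in all 8 pairs of conditioned medium with control. In both neratinib panels the pair of PSC4 replicate 1 lies farthest left for Wnt4, Wnt5a, Wnt11, Dkk3, Sfrp1, Sfrp2 and Axin2.

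Axin2, the scaffold of the beta-catenin destruction complex and itself a target of the pathway (ENSMUSG00000000142, chr11:108920349-108950783), fell with TGF-beta and fell furthest with neratinib. The control libraries held 5.64, 6.58 and 10.2 CPM in PSC4 and 4.99 and 3.72 CPM in PSC5. The TGF-beta libraries held 3.72 and 4.44 CPM in PSC4 and 2.36 and 3.09 CPM in PSC5, and the CM libraries 3.29 and 4.59 CPM in PSC4 and 2.71 and 2.41 CPM in PSC5. The neratinib libraries held 0.638 and 1.71 CPM in PSC4 and 1.73 and 1.15 CPM in PSC5, below every library of the other 3 media. With neratinib Axin2 fell by 2.13 ± 0.31 against control (edgeR adjusted p = 0.000124). Against CM it fell by 1.25 ± 0.31 (adjusted p = 0.0124, and 0.086 with only the compared groups). All 4 pairs were lower in both comparisons.

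With TGF-beta Axin2 fell by 0.81 ± 0.29 (adjusted p = 0.0341). This call was lost without any 1 of the 4 TGF-beta libraries, control PSC4 replicate 2 or 3, or control PSC5 replicate 1 (0.0523 to 0.0972). In CM the difference was -0.88 ± 0.29 with an adjusted p of 0.0524, and of 0.0364 with the replicate block, 0.0149 with DESeq2 and 0.0211 without the 3 PSC4 replicate 1 libraries. The CM to TGF-beta difference was -0.07 ± 0.30 (adjusted p = 0.883).

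Counted over the 8 tested members, 2 rose and 4 fell with TGF-beta, against 40.2% of all genes called, 19.7% higher and 20.5% lower. In CM none rose and 2 fell (14.2% of all genes called, 7.05% higher and 7.14% lower), and 4 fell with the replicate block, which called 23.3% of all genes. With neratinib against control none rose and 7 fell, Sfrp1 being the exception (43.1% of all genes called, 22.2% higher and 20.9% lower). Neratinib against CM gave none higher and 2 lower, Axin2 and Wnt11 (20.5% of all genes called, 10.8% higher and 9.63% lower). The replicate block made that 4, Axin2, Dkk3, Sfrp1 and Sfrp2, with 32.8% of all genes called. CM against TGF-beta gave 2 higher, Sfrp1 and Sfrp2, and 3 lower, Wnt2, Wnt5a and Wnt11 (35.3% of all genes called, 17.8% higher and 17.5% lower). The 3 comparisons with control share the same control libraries.

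These counts moved when libraries or terms were left out. Without the 3 PSC4 replicate 1 libraries, 4 members fell in CM (Axin2, Wnt2, Wnt4 and Wnt11), in a fit that called 2543 of 14049 genes. There 3 were higher in CM than with TGF-beta (Sfrp1, Sfrp2 and Wnt4, with 5844 genes called). Neratinib against CM gave 2 lower, Axin2 and Sfrp2, with 1989 genes called. With TGF-beta 2 members fell without any 1 of 7 libraries, all but control PSC4 replicate 1 and control PSC5 replicate 2. The number that rose was 1 without TGF-beta PSC4 replicate 2 or 3 or control PSC4 replicate 2, and 3 without control PSC4 replicate 3. In CM 1 fell, Wnt11, without any 1 of the 4 CM libraries, control PSC4 replicate 3 or control PSC5 replicate 2. Against CM 1 fell with neratinib, Axin2, without any 1 library other than neratinib PSC4 replicate 2, and against TGF-beta 1 was higher in CM, Sfrp2, without any 1 library other than CM PSC4 replicate 1. Against control 5 to 7 fell with neratinib when 1 library was left out, and neither Sfrp2 nor Wnt4 was called without neratinib PSC5 replicate 2. Without 1 library, 4750 to 5516 genes were called with TGF-beta, 801 to 1793 in CM and 4952 to 6258 with neratinib against control. The numbers were 1748 to 3685 for neratinib against CM and 4079 to 4619 for CM against TGF-beta. With only the compared groups, neratinib against control gave 4 lower of 7 members past the filter (35.5% of all genes called). Neratinib against CM gave 0 of 6 in edgeR (4.54% of all genes called), with 1 at an unadjusted p under 0.05, while DESeq2 over all groups called 2. With no cell line term no member was called higher in CM than with TGF-beta (1 at an unadjusted p under 0.05), and the calls of Sfrp1 with TGF-beta (0.122), Wnt2 in CM (0.0502), Sfrp2 (0.06) and Wnt4 (0.0945) with neratinib against control and Wnt11 against CM (0.0571) were lost.

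The pathway was also taken as 6 lists by role, with 90 genes in all, 80 of them other than the 10 members. Of these 80, 60 passed the filter on low counts and were tested. Among the 60, 14 rose and 16 fell with TGF-beta, 2 rose and 10 fell in CM, and 7 rose and 23 fell with neratinib against control. Their median log2 difference was -0.09 with TGF-beta, -0.16 in CM and -0.31 with neratinib, against -0.02, 0 and 0 over all genes. The counts by role that follow include the tested members.

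Of 12 tested ligands, 3 rose and 3 fell with TGF-beta (median -0.45). Wnt7b rose most, by 6.42 ± 1.25 (edgeR adjusted p = 0.00085), from 0 to 0.238 CPM in the control libraries to 3.38, 2.38, 8.77 and 12.4 CPM. Wnt2b, a relative of Wnt2, fell by 2.90 ± 0.76 (adjusted p = 0.00704) and Wnt10a fell by 1.00. With neratinib against control 8 of 12 ligands fell and 2 rose (median -1.14). Wnt2b was among those that fell (-2.30 ± 0.73, adjusted p = 0.0202, and 0.0769 without neratinib PSC4 replicate 1). Wnt10a fell with neratinib against CM, from a mean of 30.5 to 9.94 CPM, at a log2 difference of -1.76 ± 0.35 (adjusted p = 0.00353), and Wnt6 fell by 2.23 ± 0.67 (adjusted p = 0.0311, 0.114 without the 3 PSC4 replicate 1 libraries and 0.0783 with no cell line term). Without any 1 of 5 libraries, CM PSC4 replicate 1, CM PSC5 replicate 1 or neratinib PSC4 replicate 1, PSC4 replicate 2 or PSC5 replicate 2, the adjusted p of Wnt6 was 0.0582 to 0.0906.

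Wnt7a and Wnt7b rose in both conditioned media, where they moved with epithelial keratins. Wnt7a was at or under the floor of 3 counts in all control and TGF-beta libraries. In CM it held 2.43 and 1.68 CPM in the T6 libraries of PSC4 and PSC5, 0.382 CPM in the T8 library of PSC5 and 0 in the T8 library of PSC4. With neratinib the same order gave 1.36, 4.31, 0.303 CPM and 0. Against the floor its mean was at least 10.3-fold higher in CM (edgeR adjusted p = 0.0461) and at least 13.7-fold higher with neratinib (adjusted p = 0.0163). Without any 1 of 8 of the 9 libraries the CM call was lost (0.0707 to 0.189), the exception being CM PSC4 replicate 1, and the neratinib call was lost without neratinib PSC5 replicate 2 (0.0528).

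Wnt7b held 3.39 and 3.02 CPM in the CM T6 libraries, 1.07 CPM in the T8 library of PSC5 and 0.170 CPM in that of PSC4, with a rise of 4.85 ± 1.24 (adjusted p = 0.0191). That call was lost without CM PSC4 replicate 2 or either control PSC5 library (0.0547 to 0.084). Krt8, a keratin of simple epithelia, held 43.5, 39.3, 5.62 and 0.408 CPM in the same 4 CM libraries and at most 1.02 CPM in any control or TGF-beta library. Krt18, its partner, held 34.3, 28.3, 4.32 and 0.849 CPM there. The 14 epithelial markers summed to 75.5 to 94.0 CPM in control, 84.8 to 142 CPM with TGF-beta, 69.1 to 225 CPM in CM and 39.2 to 357 CPM with neratinib. The part of epithelial RNA in the Wnt7a and Wnt7b values was not tested. Wnt7b was also high with TGF-beta, where Krt8 was 0.181 to 1.02 CPM and Krt18 2.42 to 7.89 CPM.

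**Figure D3:**
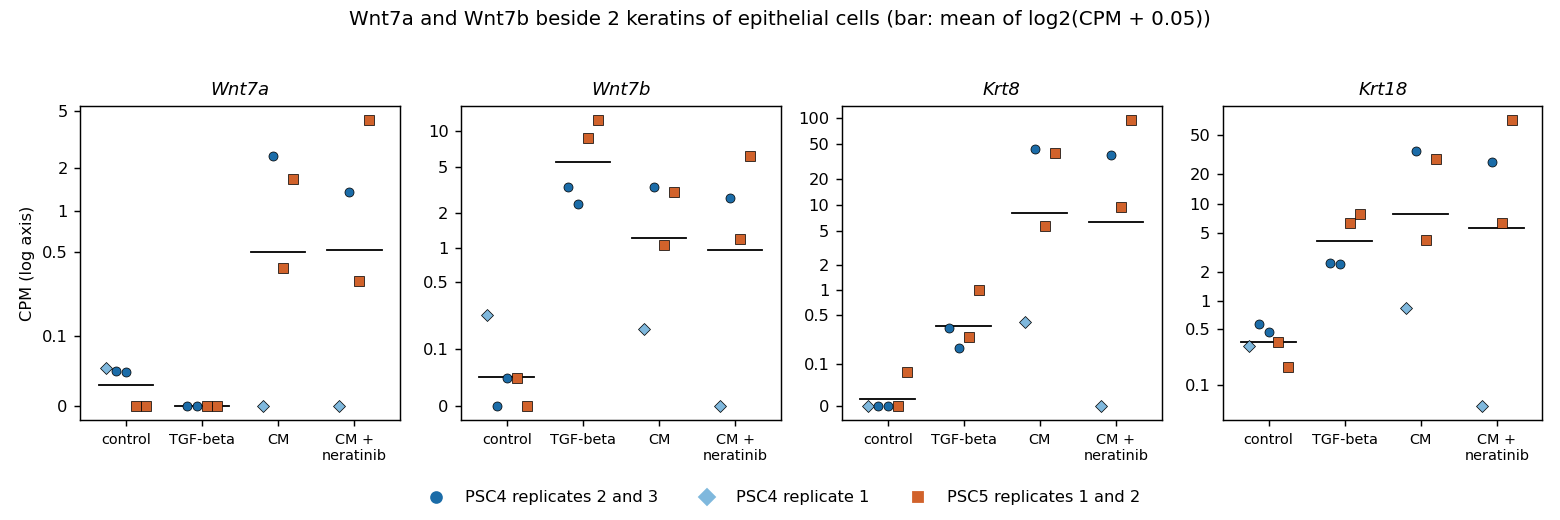
CPM on a log axis of the ligands Wnt7a and Wnt7b and the keratins Krt8 and Krt18 in each of the 17 libraries, by medium, with a bar at the group mean of log2(CPM + 0.05). In CM and with neratinib the libraries with the highest keratins also hold the highest Wnt7a and Wnt7b, while Wnt7b reaches 12.4 CPM with TGF-beta at a Krt8 of 1.02 CPM.

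Of 8 tested secreted antagonists, 5 fell and none rose with TGF-beta (median -2.23), none was called in CM (median -0.33), and 5 fell with neratinib (median -1.47). The 5 that fell with TGF-beta include Sfrp1, whose call was lost without any 1 of 8 of the 9 libraries. Sfrp4, which was not called with TGF-beta (0.64 ± 0.63, edgeR adjusted p = 0.449), went opposite ways in the lines. It held 53.8 and 73.2 CPM in PSC4 and 8.68 and 5.41 CPM in PSC5, against 13.1 to 24.2 CPM in the control libraries. Notum, an enzyme that strips the lipid from WNT ligands, fell with TGF-beta from a mean of 2.00 to 0.445 CPM, at a log2 difference of -2.12 ± 0.64 (edgeR adjusted p = 0.0161, and 0.0516 without TGF-beta PSC5 replicate 2). Draxin, which binds LRP6, was higher in CM than with TGF-beta by 3.23 ± 0.88 (adjusted p = 0.00991). In CM against TGF-beta 5 of 8 antagonists were higher and none was lower (median 2.33), where 17.8% of all genes were called higher and 17.5% lower. Sfrp1 was among those 5, and its call was lost without any 1 of 7 of the 8 libraries. Sfrp4 lay the other way, lower in CM by 1.84 ± 0.70, and just missed the call (adjusted p = 0.0534).

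Of 4 tested genes of WNT secretion and agonists, 1 rose and 2 fell with TGF-beta. Rspo2, an R-spondin that strengthens WNT signalling through LGR receptors, fell from 4.93 to 9.89 CPM in the control libraries to 0.751, 0.794, 1.63 and 0.651 CPM, at -2.93 ± 0.39 (edgeR adjusted p = 3.66e-05). With neratinib it fell by 2.31 ± 0.38 against control (adjusted p = 0.000289), and against CM it fell by 1.57 ± 0.38 (adjusted p = 0.0105, and 0.0712 with only the compared groups). Of 20 receptors and co-receptors, 5 rose and 4 fell with TGF-beta, where 19.7% of all genes were called higher and 20.5% lower. None rose and 2 fell in CM (7.05% and 7.14% of all genes). None rose and 7 fell with neratinib against control (22.2% and 20.9% of all genes). Lgr6, a receptor for R-spondins, rose from 3.66 to 4.60 CPM in control to 62.8 and 72.6 CPM in PSC4 and 50.8 and 46.2 CPM in PSC5, by 3.77 ± 0.18 (adjusted p = 3.44e-09). The 4 CM libraries held 2.60 to 5.26 CPM of Lgr6. Fzd6, a Frizzled receptor, was lower in CM than with TGF-beta, at -2.02 ± 0.23 (adjusted p = 9.59e-06).

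**Figure D4:**
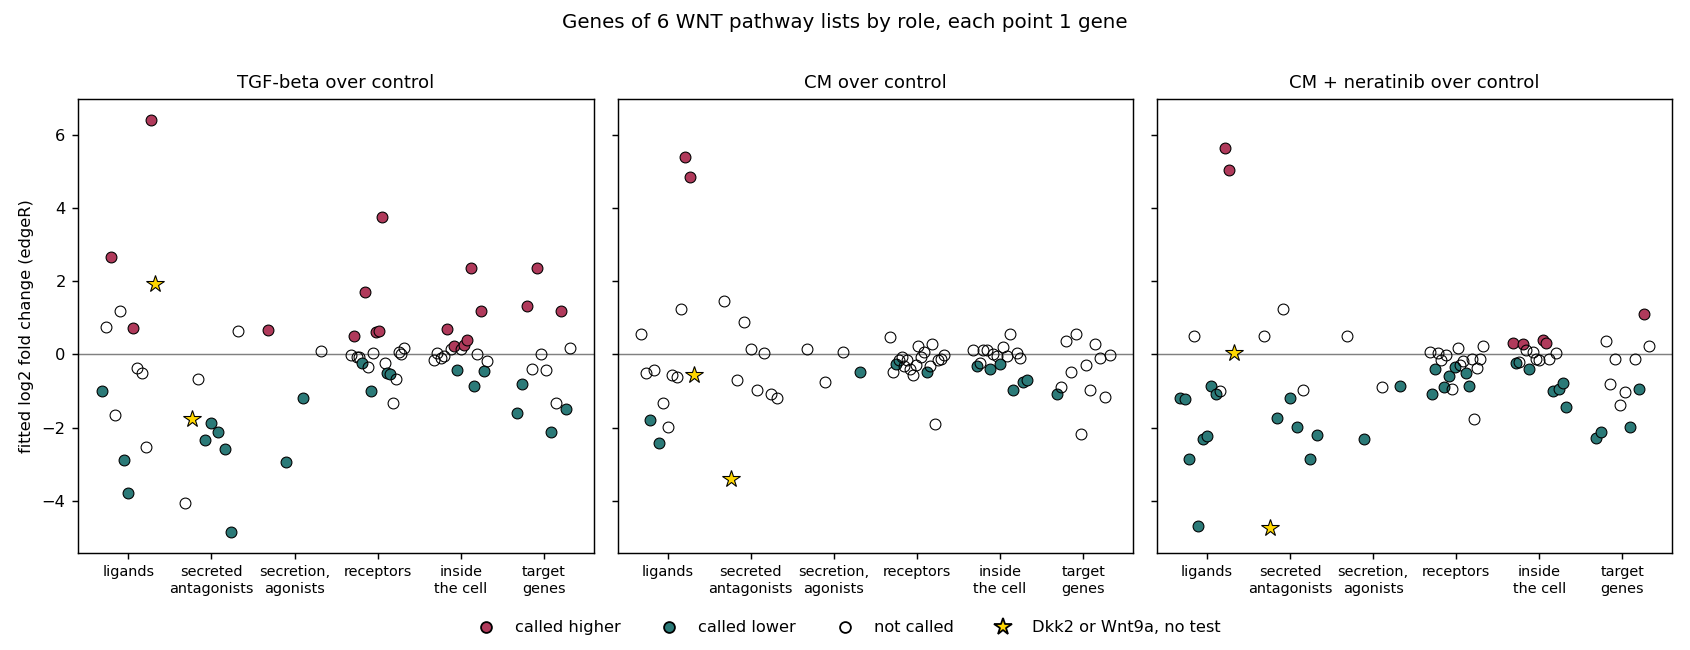
Fitted log2 fold change of each tested gene of the 6 lists, grouped by role, in the 3 comparisons with control, with called genes filled and Dkk2 and Wnt9a, which carry no test, as stars. The called genes above and below 0, each counted once, number 16 and 20 for TGF-beta, members included, 2 and 12 for CM, and 7 and 30 for neratinib. Genes shared between lists, such as Lef1, Tcf7 and Notum, are drawn in each of their lists, so filled points can outnumber called genes. Fitted values of genes near 0 in 1 group, such as Wnt7a and Wnt2, depend on the prior count.

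Inside the cell, 6 of 17 pathway genes rose and 3 fell with TGF-beta, none rose and 6 fell in CM, and 4 rose and 6 fell with neratinib. Lef1, a factor that carries beta-catenin to DNA, rose with TGF-beta from 7.44 to 15.3 CPM in control to 50.4 and 60.6 CPM in PSC4 and 58.6 and 72.3 CPM in PSC5, by 2.37 ± 0.27 (edgeR adjusted p = 8.96e-06). Tcf7l1, a TCF factor that mostly represses, fell by 0.76 ± 0.12 in CM (adjusted p = 0.00108), and Pygo1, a co-activator of beta-catenin, fell by 0.97 ± 0.26 (adjusted p = 0.0238). Without CM PSC4 replicate 1, CM PSC5 replicate 1, control PSC4 replicate 3 or control PSC5 replicate 1 the Pygo1 call was lost (0.0515 to 0.0833). Gsk3b, the kinase that marks beta-catenin for destruction, was higher with neratinib than in CM by 0.36 ± 0.08 (adjusted p = 0.00925, and 0.0764 with only the compared groups).

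The 12 tested genes of the target list, Axin2 among them, did not move one way with TGF-beta: Lef1, Tcf7 and Ccn4 rose, and Axin2, Apcdd1, Notum and Tnfrsf19 fell. In CM 1 gene fell, Apcdd1, a membrane-bound WNT inhibitor, at -1.07 ± 0.21 (edgeR adjusted p = 0.0051). With neratinib against control 4 fell, Axin2, Apcdd1, Notum and Tcf7, and Tnfrsf19 rose. Apcdd1 held 33.0 to 49.8 CPM in control, 12.3 to 26.9 CPM in CM and 6.00, 7.55, 12.5 and 10.3 CPM with neratinib, and fell by 2.29 ± 0.23 from control to neratinib (adjusted p = 6.51e-06). Tnfrsf19, a receptor of the TNF family, rose against CM from 0.168 to 0.442 CPM to 0.519 to 2.21 CPM, by 2.27 ± 0.48 (adjusted p = 0.00508). Its rise of 1.10 ± 0.42 against control (adjusted p = 0.0472) was lost with the replicate block (0.0904), without the 3 PSC4 replicate 1 libraries (0.234) and without any 1 of 7 of the 9 libraries (0.0519 to 0.175), the exceptions being control PSC5 replicate 1 and neratinib PSC5 replicate 1.

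**Figure D5:**
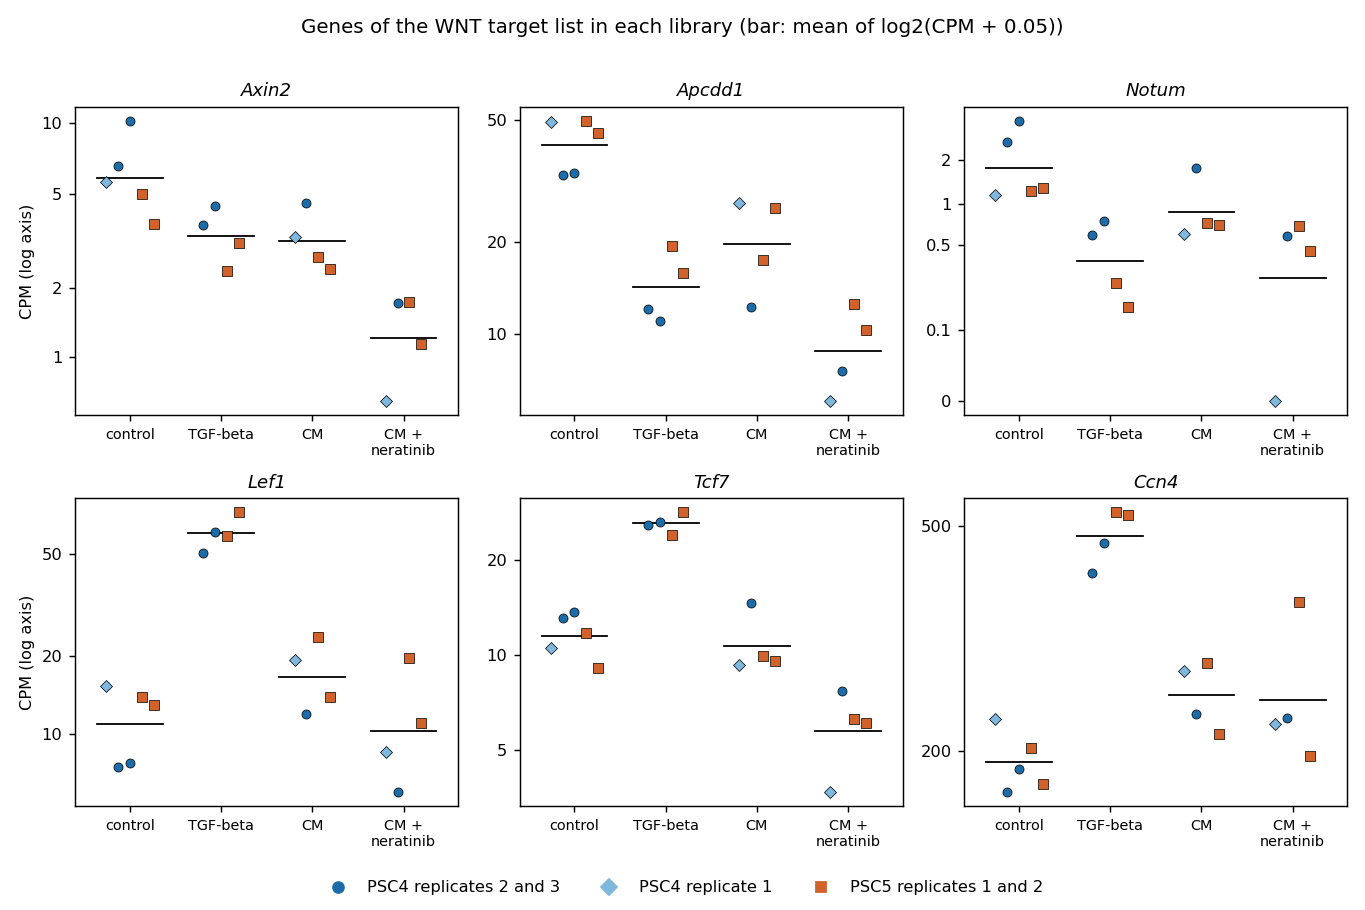
CPM on a log axis of 6 genes of the WNT target list in each of the 17 libraries, by medium, with a bar at the group mean of log2(CPM + 0.05). Axin2, Apcdd1 and Notum lie lower with TGF-beta than in control on average, Lef1, Tcf7 and Ccn4 lie above every control library with TGF-beta, and the neratinib libraries hold the lowest Axin2, 0.638 to 1.73 CPM.

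The genes whose pattern lay nearest to Dkk2 and Wnt9a were found by the root mean square difference of centred log2 CPM over the 17 libraries, among 13102 tested genes, leaving out predicted gene models and RIKEN clones. Nearest to Dkk2 were Pgm5 (0.778 log2 units), Daam2 (0.944), Galnt16 (0.964), Mchr1 (1.02) and Col6a5 (1.03), where the median over all searched genes was 2.28. Pgm5 had group means of 8.66, 4.14, 1.57 and 0.339 CPM in control, TGF-beta, CM and neratinib, beside 38.2, 9.28, 3.13 and 1.31 CPM for Dkk2. Nearest to Wnt9a were Glrb (0.318), Tmsb4x (0.335), Map1b (0.366), Dpysl3 (0.389) and Tln2 (0.4), with a median of 1.02 over all searched genes. Glrb had group means of 3.96, 12.7, 2.63 and 5.25 CPM, beside 1.73, 6.60, 1.17 and 1.77 CPM for Wnt9a.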

How the data were processed

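Gene expression was measured by RNA sequencing of 17 mRNA libraries from cultured cells. The authors deposited expected counts for each Ensembl gene ID, estimated with Salmon 1.4.0 on GRCm38/mm10, per the submitters' processing notes; DESeq 2 is named there too. Read filters, strand and annotation release are not given in the sources used here. Of the values above 0, 74.8% were not whole, and all were rounded to whole counts. Names and positions came from GENCODE M21 (GRCm38) and promoters from RefSeq (GRCm38.p6); 35437 of 35896 IDs matched a symbol.

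Counts were fitted over all 17 libraries in edgeR 4.0.16 (R 4.3.3) by its quasi-likelihood test, with TMM scaling, the filterByExpr filter (minimum count 10, total 15), and medium and cell line as terms. P-values were Benjamini-Hochberg adjusted over 13923 genes, and called means under 0.05. Medium codes were tested with a block of line and number. The medium by line interactions were chosen after seeing the data. Pair ratios used CPM plus 0.1. The fit was tested on simulated data with known changes.

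After removal of group means, all 22 pairs of libraries of different groups with the same line and number correlated across genes above 0.1 (median 0.299). So did 14 of 32 pairs of the same line and another number (median -0.0756) and 14 of 54 pairs of different lines (median -0.183). Libraries of the same line and number were therefore treated as pairs in the block. In both conditioned media they also share the medium code, which within those media cannot be told apart from the number. The test of the codes takes the effect of the number from the control and TGF-beta libraries. Replicates of a line differ in passage, and in conditioned medium also in the code T6 or T8. The p-values of the main fit therefore rest on a spread that mixes passage with medium code. That spread also holds the distance of the PSC4 replicate 1 libraries from the other PSC4 libraries, and the main fit does not use the pairing by number. Whether the lines came from separate animals is not given in the sources used here. A floor of 3 counts in 1 library was 0.101 to 0.137 CPM and covers counting error only.

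The members, lists and tests were chosen with earlier results of these data known. Named were the 10 members; in each comparison the 3 largest rises and 3 largest falls among other called list genes whose higher group mean reached 1 CPM; the 5 genes nearest to Dkk2 and to Wnt9a; Col1a1, Krt8 and Krt18; and list genes that account for a count. Cd68, Ptprc, Adgre1, Des, Lum, Msln and Sfrp4 were named after their values were seen. Alternatives were DESeq2 1.42.0, upper-quartile scaling, no filter, a replicate block, only the compared groups, no line term, PSC4 replicate 1 left out or counted with PSC5, and each library left out.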

Additional observations from a re-analysis of the deposited data

Results flagged for a closer look

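In 6 of 39 sets of group values, 1 library lay far from the other 3 of its group. The sets share the same libraries and were compared in CPM, not on a log scale, so this number cannot be set against chance. Dkk2 was 5.12 CPM in TGF-beta PSC5 replicate 2, against 10.3 to 11.1 CPM in the other 3, and 4.01 CPM in neratinib PSC4 replicate 2, against 0.170 to 0.735 CPM. In the same neratinib library Wnt4 was 8.71 CPM, against 0.128 to 1.4 CPM. Sfrp1 was 222 CPM in CM PSC4 replicate 2, against 35.1 to 54.2 CPM. Wnt9a was 1.30 CPM in neratinib PSC5 replicate 1, against 1.91 to 1.96 CPM. Wnt11 was 12.4 CPM in TGF-beta PSC5 replicate 2, against 6.32 to 7.09 CPM.

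Wnt9a with neratinib lay above control in every PSC4 library and below it in every PSC5 library, a difference of 0.98 log2 units between the lines. The interaction test of edgeR gave an unadjusted p of 0.0753 and an adjusted p of 1, so the difference was not shown.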

How the results depend on the processing

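Of 1533 alternative values for single genes, 1338 counted as unchanged, 129 were no longer called and 42 became called. Another 22 changed direction and 2 moved by more than the replicate spread. For tested differences, unchanged means the same direction and side of the threshold. For the untested media differences of Dkk2 and Wnt9a it means a shift under the replicate spread. Sign changes of Wnt9a in neratinib against control (-0.14 to 0.2) are therefore counted as unchanged. The causes were not tested. The counts of genes called for TGF-beta against control, neratinib against control and CM against TGF-beta stayed within 1.5 times under every alternative run.

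For CM against control, 2986 genes were called with the 3 PSC4 replicate 1 libraries counted with PSC5, 3240 with the paired fit (replicate block), and 801 to 1793 with 1 library left out, lowest without CM PSC5 replicate 1; it was 1269, 1204 and 1219 without CM PSC4 replicate 2, control PSC5 replicate 1 and control PSC5 replicate 2. For neratinib against CM the count was 4563 with the replicate block, 602 with only the compared groups, and 1748 to 3685 with 1 library left out, with 1748 without neratinib PSC5 replicate 2 and 1782 without CM PSC4 replicate 1. For PSC4 against PSC5 it was 6046 with the PSC4 replicate 1 libraries counted with PSC5, 5980 without them, 2237 with DESeq2, and 0 to 3058 with 1 library left out. That count moved by over 1.5 times without any 1 library other than CM PSC5 replicate 1; edgeR called 0 genes without control PSC5 replicate 2, where 3445 had an unadjusted p under 0.05, and 2343 to 3058 without 1 of the PSC4 replicate 1 libraries. For T6 against T8 it was 5 without PSC4 replicate 1, 33 with DESeq2, 126 with no replicate block, 3 with only the 8 conditioned medium libraries, and 0 to 2 with 1 library left out (2 without CM PSC4 replicate 1).

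Differences near 0 changed direction. Axin2 in CM against TGF-beta was 0.10 with PSC4 replicate 1 counted with PSC5, 0.02 without it, 0.17 with the replicate block, and -0.19 to 0.00 with 1 library left out; Dkk3 in the same comparison was 0.18, 0.05, 0.23, and -0.23 to 0.34. Sfrp1 in CM against control was -0.38 with no cell line term, -0.01 with only the compared groups, and -0.21 to 0.41 with 1 library left out. With 1 library left out, Wnt4 in neratinib against CM ranged from -1.41 to 0.39 and Wnt5a in PSC4 against PSC5 from -0.06 to 0.17. Wnt9a in neratinib against control, which carries no test, ranged from -0.14 to 0.2 over all alternatives. Apart from the calls named with their blocked p above, the replicate block changed no call of a named gene. Depth limits Wnt2, Wnt7a, and Wnt11 in conditioned medium, which rest on few counts.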
